A study of Mus musculus with 11 samples.

Results

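The features described here were the microRNA genes annotated outside the Mir290 cluster that gave signal in RNA-seq libraries of mouse embryonic stem cells (ESCs). They were the rows whose symbol marks a microRNA gene, other than the 7 genes of the Mir290 cluster, and whose mean level over the 8 ribodepleted libraries was above 1 TPM (each feature's reads corrected for its length and scaled to a common total per library). This rule kept 229 features out of 622 microRNA symbols and 23284 features in all. Below or at the limit were 386 microRNA symbols, of which 262 were listed at 0 in every ribodepleted library. Just inside the limit lay Mir337 with 1.01 TPM, Mir3067 with 1.05 TPM and Mir367 with 1.11 TPM, and just outside it lay Mir143 with 0.978 TPM, Mir5100 with 0.973 TPM and Mir1929 with 0.960 TPM. The members were thus chosen by the average level over all ribodepleted libraries, so the levels themselves are given as a description. The rule was blind to which of those libraries were treated or knockout.

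The study compared wild-type (WT) ESCs with ESCs in which Tet1, Tet2 and Tet3 had all been knocked out (triple knock-out, TKO), a line made earlier. The Tet proteins are dioxygenases that oxidise 5-methylcytosine, and the comparison of genotypes with and without transcription asked how RNA levels and RNA decay depend on them. Each genotype was grown on gelatin in serum with leukemia inhibitory factor. Cells were treated for 4 h with 10 µg/ml of α-amanitin, which blocks RNA polymerase II, or served as the control (0 h). The labels call these controls non-treated, while the study's methods also describe water as vehicle. The 4 groups WT 0 h, WT 4 h, TKO 0 h and TKO 4 h had 2 ribodepleted total RNA libraries each. A further 3 libraries were made from polyadenylated RNA of WT cells only (WT polyA), with no TKO or amanitin counterpart. No source used here says that the TKO line was more than 1 clone, so genotype and clone cannot be told apart. The labels call the samples replicates and the study describes biological duplicates, and the p-values measure the spread between those samples.

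MicroRNAs are short RNAs that guide Argonaute proteins to messenger RNAs. RNA polymerase II makes a long primary transcript, Drosha and Dgcr8 cut a hairpin out of it in the nucleus, and Dicer1 trims the hairpin to the mature microRNA. Bases 2 to 8 of the mature microRNA, the seed, select most targets, so microRNAs with the same seed form a family. The ribodepleted libraries were read as pairs of 150 bases, and the mature microRNA was not measured. A read on a hairpin feature can come from a primary transcript, a precursor or the RNA of a gene that overlaps the hairpin. The source of the reads was not tested. In ESCs the Mir290 and miR-302 clusters are known for sustaining rapid division, the miR-17-92 cluster for growth and survival, and let-7 for promoting differentiation, which Lin28a opposes by blocking its maturation.

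The mature sequences below belong to the members on which the results turn, 5′ to 3′, from the RefSeq table of build GRCm38.p6, with the seed in capitals. In that table, 199 of the 229 members had an entry, 193 by symbol and 6 by an older symbol. These 199 members carried 339 distinct mature sequences with 291 distinct seeds. The first group holds members that fell in WT cells after amanitin, with Mir16-2 and Mir17 as relatives of the same families that were not called (miR-16-5p and miR-17-5p).
miR-15b-5p: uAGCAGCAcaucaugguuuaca
miR-15a-5p: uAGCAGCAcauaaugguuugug
miR-16-5p: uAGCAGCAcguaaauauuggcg
miR-17-5p: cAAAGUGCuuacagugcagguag
miR-18a-5p: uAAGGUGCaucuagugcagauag
miR-18b-5p: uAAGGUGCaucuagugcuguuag
miR-19a-3p: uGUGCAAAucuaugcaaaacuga
miR-363-3p: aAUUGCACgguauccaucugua
let-7f-5p: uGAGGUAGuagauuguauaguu
let-7d-5p: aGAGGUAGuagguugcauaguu
miR-98-5p: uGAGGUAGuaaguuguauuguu
miR-1898: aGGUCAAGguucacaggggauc
miR-3058-3p: uUCCUGUCagccgugggugcc
miR-674-5p: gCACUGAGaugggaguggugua
miR-5119: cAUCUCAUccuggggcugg
The seed GAGGUAG was carried by 7 members (the let-7 genes and Mir98), AAAGUGC by 6 (Mir17, Mir20a, Mir20b, Mir93, Mir106a and Mir106b), AUUGCAC by 5 (Mir25, Mir32, Mir92-2, Mir363 and Mir367), and AGCAGCA by 4 (Mir15a, Mir15b, Mir16-2 and Mir195).

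The next group holds members called different between TKO and WT cells, first from the imprinted Dlk1-Dio3 domain on chromosome 12 and then from elsewhere. Added to it are Mir302c and Mir302d, cluster neighbours of Mir302b that were not called between the genotypes. The last is the 1 member with 10 or more reads that rose after amanitin.
miR-382-5p: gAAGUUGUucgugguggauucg
miR-668-3p: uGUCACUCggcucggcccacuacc
miR-654-3p: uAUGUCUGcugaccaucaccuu
miR-1193-3p: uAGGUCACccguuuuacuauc
miR-432: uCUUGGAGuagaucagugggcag
miR-758-3p: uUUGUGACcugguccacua
miR-667-3p: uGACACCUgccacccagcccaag
miR-302b-3p: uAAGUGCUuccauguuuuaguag
miR-302d-3p: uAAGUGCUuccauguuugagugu
miR-302c-3p: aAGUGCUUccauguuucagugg
miR-142a-3p: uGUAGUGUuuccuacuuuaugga
miR-196a-5p: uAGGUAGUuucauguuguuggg
miR-191-5p: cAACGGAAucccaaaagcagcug
let-7i-5p: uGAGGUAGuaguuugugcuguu
miR-1983: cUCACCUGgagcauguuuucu
The Dlk1-Dio3 members printed here carry different seeds, although their genes lie in runs of 1 domain, whereas miR-302b-3p and miR-302d-3p share the seed AAGUGCU, which miR-302c-3p carries 1 base nearer its 5′ end.

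Reads were few, and read numbers are therefore given with many of the values, though not with all. The deposited TPM values were whole multiples of the value of 1 read, which gave the read number of every feature. One read on a feature of 80 bases was worth 0.834 to 0.957 TPM in a ribodepleted library. The median member had 5.63 reads per library, 102 members had under 5, 83 had 10 or more and 5 had 100 or more. Mir17hg, the long host transcript of the miR-17-92 cluster and the only member that is not a hairpin, had the most with 1623 reads. Mir1949 followed with 1053 reads. In 168 members the mean was above 1 TPM in each of the 4 ribodepleted groups, and 61 members passed the limit through some groups only.

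The libraries held 25511984 to 29786107 reads when ribodepleted and 72653688 to 82144950 when polyA selected. Tet1 lay between 123 and 148 TPM in WT 0 h libraries and between 21.3 and 32.8 TPM in TKO libraries, and Tet2 between 40.4 and 57.2 TPM in WT and 5.91 and 8.32 TPM in TKO, whereas Tet3 was low throughout, at 1.06 to 1.47 TPM in WT and 1.16 to 1.64 TPM in TKO. The 10 ESC markers summed to 5000 to 5050 TPM in WT 0 h and 4705 to 4762 TPM in TKO 0 h, and 3 of them were called lower in TKO at 0 h by limma: Zfp42 (495 and 124 TPM, -2.08), Klf4 (-0.98) and Esrrb (-0.74). At 4 h 4 were called lower, and 0 were called higher at either time. The 13 markers of differentiated cells summed to 15.5 to 16.1 TPM in WT 0 h, 13.2 to 14.6 TPM in WT 4 h, 18.04 to 18.9 TPM in TKO 0 h and 17.2 TPM in both TKO 4 h libraries, so the genotypes did not overlap. Of the 6 tested, Col1a2 was called higher in TKO at 0 h and 4 h (1.18 and 1.13), Gata4 lower at 0 h and T lower at 4 h. The part of these marker differences in the genotype results below was not tested. The RNA components of RNase P and RNase MRP alone took 12.2% to 14.7% of the TPM of the ribodepleted libraries, so levels were divided by a size factor per library before testing. Deposited TPM without that step moved the median change of all features to -0.11 on the log2 scale after amanitin in WT and to 0.14 in TKO against WT at 4 h, from 0.03 and -0.01. Changes are therefore relative to the median feature, and a fall shared by all RNA would not be seen.

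Together the 229 features took 299 and 293 RPM (reads scaled to a common library total) in the WT 0 h libraries and 195 and 193 RPM in the WT 4 h libraries. In TKO cells they took 241 and 235 RPM at 0 h and 205 and 173 RPM at 4 h. Both WT 4 h libraries lay below both WT 0 h libraries, the mean at 4 h being 65.5% of that at 0 h. The TKO groups were also apart, at 79.3%, and TKO 4 h replicate 2 was the lowest of the 8 ribodepleted libraries. Without Mir17hg, the member with the most reads, the mean at 4 h was 71.2% of that at 0 h in WT and 82.7% in TKO. These RPM values were not divided by the size factors. In bulk RNA a change in the share of a cell type and a change in RNA per cell cannot be told apart.

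After 4 h in α-amanitin, microRNA features of WT cells went down far more often than other features did. Of the 229 members, 74 were called lower (32.3%), where a call means a Benjamini-Hochberg adjusted p under 0.05 in limma and a change over 1.5-fold. The percentage of all 12467 features called lower was 2.01, and the median change of the members was -0.56 on the log2 scale beside 0.03 for all features. Only 3 members were called higher (1.31%), against 0.0882% of all features. Of these, Mir3067 and Mir379 had more reads in WT 4 h than in any other ribodepleted group. They passed the limit in good part through that group, so their calls are not independent of it. In 182 of the 229 members the estimate was below 0. Among the 83 members with 10 or more reads, 42 were called lower and 1 higher, with a median of -0.69. Other short RNAs went the same way: of 114 further features shorter than 200 bases, 99 of them small nucleolar or Cajal body RNAs, 53 were called lower (46.5%), with a median of -0.64. The number of members called lower was 26 without WT 4 h replicate 1, 32 without WT 0 h replicate 1, 48 without WT 0 h replicate 2 and 49 without WT 4 h replicate 2.

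**Figure D1:**
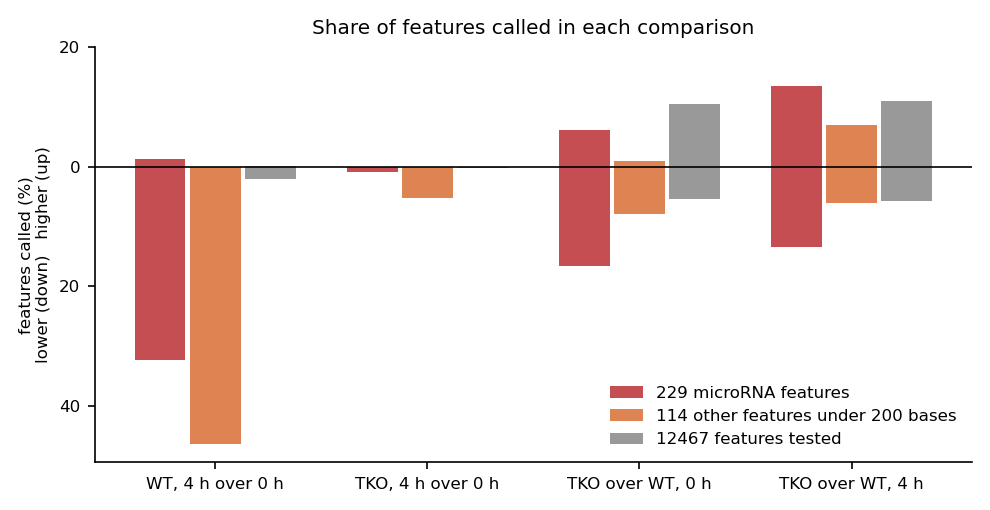
Percentage of features called in each of 4 comparisons, with higher calls above 0 and lower calls below it. Bars stand for the 229 microRNA features, the 114 other features under 200 bases and all 12467 features tested. In WT cells after amanitin 32.3% of the microRNA features were called lower, against 2.01% of all features.

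The deepest fall with 10 or more reads was that of Mir15b. The miR-15/16 family is known to restrain cyclins and Bcl2. Mir15b lies in an intron of Smc4, a condensin subunit, at chr3:68813694-68813757 on the plus strand of build mm9. It stood at 21.2 and 23.8 TPM in WT 0 h, 2.09 and 5.38 TPM in WT 4 h, 19.8 and 21.3 TPM in TKO 0 h and 14.4 and 13.9 TPM in TKO 4 h. The WT 4 h libraries lay far below the other 6, which overlapped between WT 0 h and TKO 0 h. Behind these values were 41 reads in WT 0 h and 7 in WT 4 h, and the change in WT was -2.28 on the log2 scale (SE 0.26, adjusted p = 0.00272 in limma). Mir15a, its family member with the same seed, changed by -0.91 (adjusted p = 0.0194). Mir16-2, just downstream of Mir15b in the same intron, had 0 to 5 reads per library and was not called (-0.31, SE 0.61). Summed over the 4 members of the family, the RPM in WT at 4 h was 38.9% of that at 0 h, and in TKO 74.6%.

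Mir1898, in an intron of Zfr, stood at 16.4 and 12.5 TPM in WT 0 h, 4.03 and 4.14 TPM in WT 4 h, 17.7 and 18.2 TPM in TKO 0 h and 16.6 and 9.82 TPM in TKO 4 h. The WT 4 h libraries lay below all others and the TKO 0 h libraries above all others, and the change in WT was -1.46 (SE 0.18, adjusted p = 0.0034 in limma). Mir3058, in an intron of Nudt4, fell from 14.1 and 16.7 TPM to 3.67 and 4.54 TPM in WT (-1.56, adjusted p = 0.00778), and without WT 4 h replicate 1 the adjusted p was 0.0574. Mir674, between genes on chromosome 2, fell from 15.0 and 11.1 TPM to 4.68 and 2.75 TPM (-1.46, adjusted p = 0.00874), and without WT 0 h replicate 1 the adjusted p was 0.0561. With fewer than 10 reads, Mir5119 in an intron of Cdk12 went from 13.8 and 15.8 TPM to 1.17 and 3.62 TPM, on 24 and 4 reads. Mir709, in an intron of Rfx1, had 11 reads in WT 0 h and 1 in WT 4 h, an 11-fold lower share with an exact counting interval of 1.61 to 475.

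The introns of Sfmbt2, a Polycomb gene, hold a large rodent array of related hairpins on chromosome 2. Of its hairpins, 19 were members, in 2 runs at chr2:10389122-10402947 and chr2:10429257-10439906 on the plus strand, and 16 of them had 10 or more reads. After amanitin in WT, 10 of the 19 were called lower, all 19 estimates were below 0 and their median was -0.65. Mir669c stood at 19.7 and 21.0 TPM in WT 0 h, 8.58 and 5.68 TPM in WT 4 h, 19.6 and 18.03 TPM in TKO 0 h and 16.1 and 14.3 TPM in TKO 4 h. Its WT 4 h libraries lay lowest, and the change in WT was -1.27 (SE 0.155, adjusted p = 0.00341 in limma). The hairpin with the most reads among those that fell, Mir669j, went from 69.1 and 74.4 TPM to 35.3 and 35.8 TPM (-0.84, adjusted p = 0.00214), while Mir669i near the far end of the array went from 79.9 and 77.4 TPM to 56.8 and 60.7 TPM and was not called (-0.26, adjusted p = 0.0747). Summed reads over the array were 874 and 931 in WT 0 h and 505 and 570 in WT 4 h, and 829 and 761 in TKO 0 h and 612 and 486 in TKO 4 h. Members of this array are near-identical in parts, so how their reads were divided among them is uncertain.

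The miR-17-92 cluster and its paralogues are known for promoting growth and cell survival. The list held 14 members, 9 with 10 or more reads, of which 6 were called lower in WT after amanitin. All 14 estimates were below 0, with a median of -0.79. Mir17hg, at chr14:115442101-115445949 on the plus strand, stood at 72.6 and 67.4 TPM in WT 0 h, 34.2 and 35.5 TPM in WT 4 h, 55.5 and 54.2 TPM in TKO 0 h and 44.7 and 29.8 TPM in TKO 4 h. The WT groups were well apart, and the change in WT was -0.83 (SE 0.125, adjusted p = 0.00557 in limma), on over 1000 reads in each WT library. Within it Mir19a fell from 65.4 and 77.7 TPM to 30.1 and 32.7 TPM (-1.0, adjusted p = 0.0235) and Mir18 from 65.5 and 54.8 TPM to 27.8 and 30.1 TPM (-0.87, adjusted p = 0.0197). The hairpins lie within Mir17hg, and how reads were divided between it and them was not tested.

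A paralogous cluster on chromosome X, from Mir106a to Mir363, showed the same direction from another locus. Mir18b, which has the seed of Mir18, stood at 51.7 and 50.9 TPM in WT 0 h, 21.7 and 24.9 TPM in WT 4 h, 45.0 and 68.3 TPM in TKO 0 h and 26.7 and 29.4 TPM in TKO 4 h. In both genotypes the 4 h libraries lay below the 0 h libraries, with a change of -0.95 in WT (SE 0.159, adjusted p = 0.0062 in limma) and of -0.86 in TKO (adjusted p = 0.0705, not called). Summed reads on this cluster were 108 and 102 in WT 0 h and 49 and 48 in WT 4 h.

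Of the let-7 family, whose rise accompanies differentiation, 7 members were measured, 3 with 10 or more reads, and 3 were called lower in WT after amanitin. Of the 7 estimates after amanitin, 5 were below 0 in WT and 4 in TKO. Between the genotypes, 2 members were called higher in TKO at 0 h and 0 lower, and at 4 h 1 was called higher and 1 lower. Mirlet7f-1, on chromosome 13, stood at 32.9 and 38.9 TPM in WT 0 h, 17.3 and 20.1 TPM in WT 4 h, 39.0 and 47.6 TPM in TKO 0 h and 51.6 and 33.3 TPM in TKO 4 h. WT 4 h was below every other library, with a change in WT of -0.75 (SE 0.17, adjusted p = 0.0121 in limma). Its neighbour Mirlet7d changed by -1.01 (adjusted p = 0.0262) and Mir98, in an intron of Huwe1, by -1.15 (adjusted p = 0.0295), the latter on a mean of 7.75 reads per library. Mirlet7a-1, beside Mirlet7f-1 on the same strand, missed the threshold at -0.75 (adjusted p = 0.0788). Summed let-7 reads were 127 and 130 in WT 0 h and 69 and 69 in WT 4 h.

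Other families had fewer reads. In the list of the miR-130, miR-301, miR-148 and miR-152 families, 2 of 5 members were called lower in WT after amanitin. These were Mir130a (-1.02, adjusted p = 0.0413 in limma) and Mir301 (-1.28, adjusted p = 0.0264), on means of 5.9 and 5.6 reads per library. In that of the miR-26, miR-30, miR-103 and miR-107 families 1 of 6 was called lower. Of the 3 members of the miR-200 family, known as guardians of the epithelial state, 0 were called in any comparison by limma, and 0 had an unadjusted p under 0.05, with 0 to 6 reads per library each. The p53 target Mir34a had 1 to 5 reads per WT library and was not called after amanitin, and in TKO at 4 h it was called higher than in WT (1.10, adjusted p = 0.0311). Mir128-1, a neuronal microRNA, and Mir126, an endothelial one, were not called in any comparison, and no microRNA listed for muscle or for the H19-Igf2 locus passed the limit.

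Mir703 and Mir1949 were among the members not called. Mir703, opposite to 1700007G11Rik on chromosome 5, stood at 375 and 357 TPM in WT 0 h and 417 and 420 TPM in WT 4 h, a difference of 0.35 that was under 1.5-fold. Mir1949 stood at 1340 and 1327 TPM in WT 0 h and 1060 and 1002 TPM in WT 4 h and was not called (-0.21, adjusted p = 0.074). Mir1983, at chr13:21988787-21988918 on the minus strand, was the only riser with 10 or more reads. It stood at 40.1 and 36.2 TPM in WT 0 h, 61.3 and 49.5 TPM in WT 4 h, 21.7 and 32.1 TPM in TKO 0 h and 33.0 and 35.9 TPM in TKO 4 h. Its WT groups were apart, with a change of 0.68 (SE 0.17, adjusted p = 0.0158 in limma), and the adjusted p was 0.0626 without WT 0 h replicate 1, 0.0679 without WT 0 h replicate 2 and 0.101 without WT 4 h replicate 1. The other risers rested on 1 read against 5 for Mir3067 (4.98-fold, exact counting interval 0.557 to 236) and on 2 against 6 for Mir379 (2.99-fold, interval 0.534 to 30.3), and both calls ended without WT 0 h replicate 2 or WT 4 h replicate 1.

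**Figure D2:**
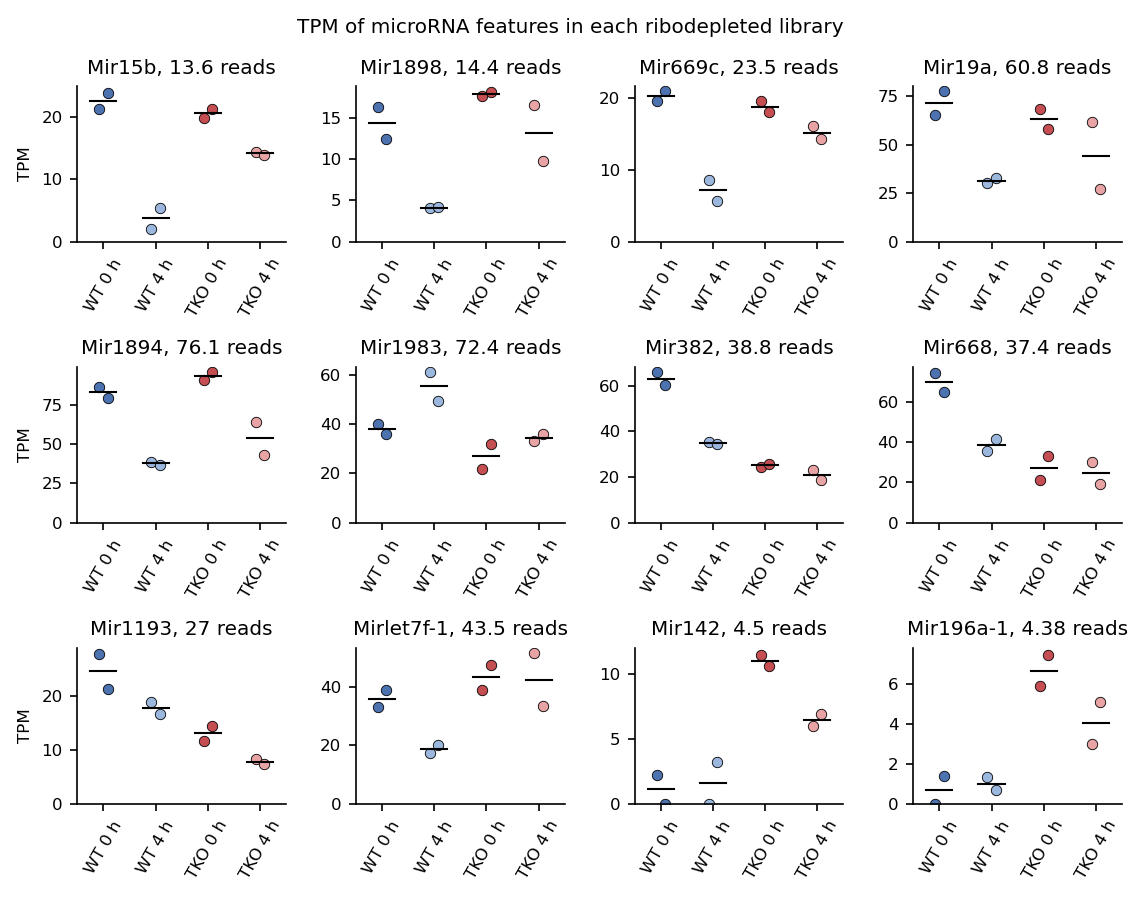
Deposited TPM of 12 microRNA features in each of the 8 ribodepleted libraries, as points, with the mean of each group of 2 as a bar; the number after each name is the mean reads per library. Mir15b, Mir1898 and Mir669c are lowest in WT 4 h, Mir382, Mir668 and Mir1193 are lower in both TKO groups than in WT 0 h, and Mir142 and Mir196a-1 are highest in TKO 0 h.

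Hairpins that lie inside genes were set beside those genes. By the mm9 annotation, 104 hairpins lay in an intron, 28 in an exon, 77 between genes and 12 opposite to a gene, and 7 could not be placed. In WT after amanitin, 36 intronic, 8 exonic, 24 intergenic and 2 opposite-strand hairpins and 3 unplaced ones were called lower, beside Mir17hg. The median change was -0.58 for intronic, -0.44 for exonic, -0.56 for intergenic and -0.745 for unplaced hairpins. For opposite-strand hairpins it was 0.01, and their summed RPM in WT 4 h was 113% of that in WT 0 h, so these did not fall as a class. For 101 intronic hairpins the host gene, 71 genes in all, was tested too. The median change in WT was -0.63 for the hairpins and 0.02 for the hosts, and 79 of the 101 hairpins had a lower estimate than their host. The hairpins are not separate cases, since 19 lie in Sfmbt2 and some others also share a host. Without Sfmbt2, 26 of 85 intronic hairpins were called lower, with a median of -0.52. Of the 36 intronic hairpins called lower, 1 had a host that was called lower as well, Mir1938 in Ifrd1, which was named after its values were seen (host -0.62, adjusted p = 0.00341 in limma).

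The named examples showed this gap. Smc4 stood at 153 TPM in WT 0 h and 139 TPM in WT 4 h on average and changed by 0.01 after scaling (adjusted p = 0.874 in limma), while Mir15b within it changed by -2.28. Zfr changed by 0.13, Nudt4 by 0.08, Cdk12 by -0.07, Rfx1 by 0.04 and Sfmbt2 by 0.02, and none of them was called. An exonic case differed in part. Mir1894, in an exon of the phosphatase subunit gene Ppp1r10, stood at 86.5 and 79.5 TPM in WT 0 h, 38.8 and 36.5 TPM in WT 4 h, 90.6 and 96.1 TPM in TKO 0 h and 64.2 and 43.0 TPM in TKO 4 h. Its WT groups were apart by -0.96 (SE 0.129, adjusted p = 0.00423), and Ppp1r10 changed by -0.51 (adjusted p = 0.00244), which was under 1.5-fold. A host's level was counted over its exons, in spliced and unspliced RNA alike, whereas an intronic hairpin lies outside them. Sfmbt2 averaged 4.56 TPM in WT polyA and 61.0 TPM in WT 0 h. How much of a host's level was mature messenger RNA, and the part of this in the gap, were not tested.

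**Figure D3:**
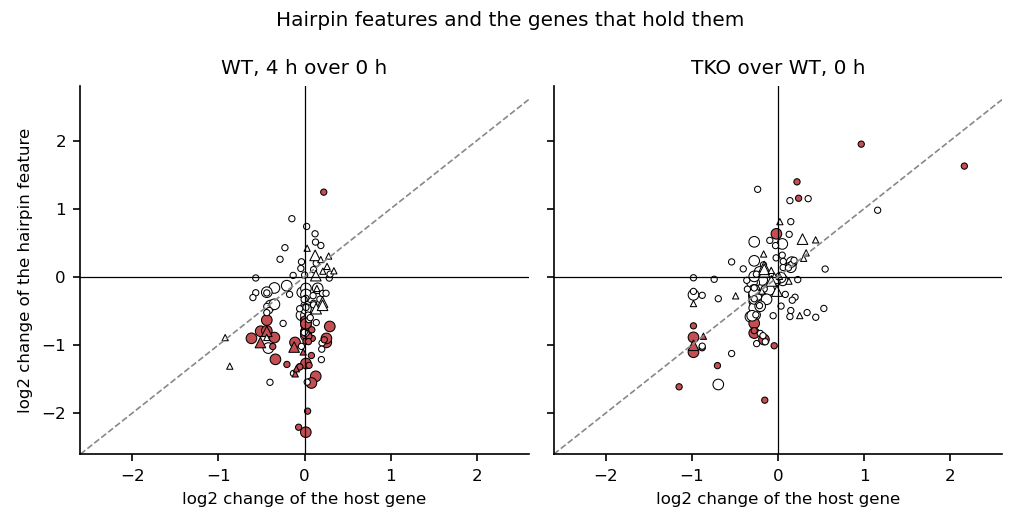
Change on the log2 scale of each hairpin feature against that of the gene that holds it, for WT after amanitin and for TKO against WT at 0 h. Circles are intronic and triangles exonic hairpins, large symbols have 10 or more reads, red symbols were called, and the dashed line marks equal change. After amanitin the hosts lie near 0 while the hairpins lie below it, and at 0 h some hairpins lie low together with their hosts.

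In TKO cells the same treatment left fewer calls. Only 2 members were called lower, against 0.16% of all features called lower, and 0 were called higher, against 0.0%; an unadjusted p under 0.05 was reached by 64 of the 229 members and by 3110 of the 12467 features, a similar share. The median change was -0.31, and 168 estimates were below 0. The members called were Mir669h, which stood at 29.9 and 36.9 TPM in TKO 0 h and 16.5 and 18.4 TPM in TKO 4 h (-0.80, adjusted p = 0.0488 in limma), and Mirlet7i, which stood at 5.49 and 8.0 TPM and then 1.80 and 1.74 TPM (-1.38, adjusted p = 0.0488) on 16 and 4 reads. Both groups were apart in each case. Each call ended on leaving out any 1 library other than TKO 4 h replicate 1, WT libraries included, with an adjusted p of up to 0.207 for Mir669h and 0.198 for Mirlet7i, both without TKO 0 h replicate 2. Without TKO 4 h replicate 1, the library with the higher microRNA share of that pair, 38 members were called.

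The difference between the genotypes in their response was tested itself. No member was called in that interaction (0.0% of all features), by limma on scaled TPM or by voom on the recovered reads. An unadjusted p under 0.05 was reached by 49 of the 229 members, a larger share than the 938 of the 12467 features. Of the 114 other features under 200 bases, 35 reached it. For Mir15b the response was 1.86 less negative in TKO (adjusted p = 0.652). The larger number of calls in WT is thus not by itself a shown difference between the genotypes. Leaving out 1 library gave 0 to 4 calls in the interaction.

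Between the genotypes at 0 h, members were more often lower than higher in TKO, unlike the features as a whole. The 114 other features under 200 bases also had more lower calls, 9 against 1 higher, with 88 estimates below 0. In all 38 members were called lower (16.6%), against 5.43% of all features, and 14 were called higher (6.11%), against 10.5% of all features. The median change was -0.21. Of the 83 members with 10 or more reads, 22 were called lower and 2 higher. Without WT 0 h replicate 1 the number called lower was 22, and without TKO 0 h replicate 2 the number called higher was 8.

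Most of the falls came from 1 imprinted domain. The Dlk1-Dio3 domain on chromosome 12 is expressed from the maternal chromosome as long noncoding transcripts, Meg3, Rian and Mirg, that carry many microRNA and small nucleolar RNA genes. Its list held 47 members, 20 with 10 or more reads, and 25 of them were called lower in TKO at 0 h and 0 higher. Their median change was -0.79 and 45 of 47 estimates were below 0. Of the 182 members outside the list, 13 were called lower and 14 higher. Mir341 and Mir1188 lie in the domain beside Mir370 but were not on the list. Mir1188, in an intron of Rian, was among the 13 called lower (-1.04). Summed reads over the 47 hairpins were 1078 and 914 in WT 0 h, 630 and 569 in WT 4 h, 567 and 520 in TKO 0 h and 380 and 282 in TKO 4 h, so the TKO libraries held fewer than the WT libraries at each time. As a share of all reads, TKO 0 h held 53.2% of the WT 0 h level.

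Mir382, at chr12:110971981-110972056 on the plus strand, was the member of the domain with the smallest adjusted p among those named. It stood at 65.8 and 60.1 TPM in WT 0 h, 35.2 and 34.4 TPM in WT 4 h, 24.6 and 25.9 TPM in TKO 0 h and 23.2 and 18.5 TPM in TKO 4 h. Every TKO library lay below every WT library, and the change at 0 h was -1.38 (SE 0.0752, adjusted p = 2.53e-06 in limma). Mir668, the next hairpin but 1 in the plot of the domain, stood at 74.7 and 65.0 TPM in WT 0 h, 35.4 and 41.7 TPM in WT 4 h, 21.2 and 33.2 TPM in TKO 0 h and 30.1 and 19.1 TPM in TKO 4 h. Again the genotypes did not overlap at either time, with a change at 0 h of -1.45 (SE 0.209, adjusted p = 0.00046). Mir654 changed by -1.31 (adjusted p = 0.000554) from 36.6 and 40.4 TPM to 16.7 and 15.3 TPM.

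Other members of the same run rested more on single libraries. Mir679 stood at 29.9 and 16.8 TPM in WT 0 h and 15.3 and 4.09 TPM in TKO 0 h (-1.45, adjusted p = 0.023 in limma), with an adjusted p of 0.139 without WT 0 h replicate 1 and 0.0837 without TKO 0 h replicate 2. Mir494 stood at 22.7 and 27.7 TPM and at 7.06 and 15.1 TPM (-1.28, adjusted p = 0.00978), with an adjusted p of 0.0605 without WT 0 h replicate 2 and 0.0551 without TKO 0 h replicate 1. Towards the start of the domain, in the first of its 3 runs, Mir3070a changed by -1.06 (adjusted p = 0.00226) and Mir3070b by -0.71 (adjusted p = 0.00197).

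**Figure D4:**
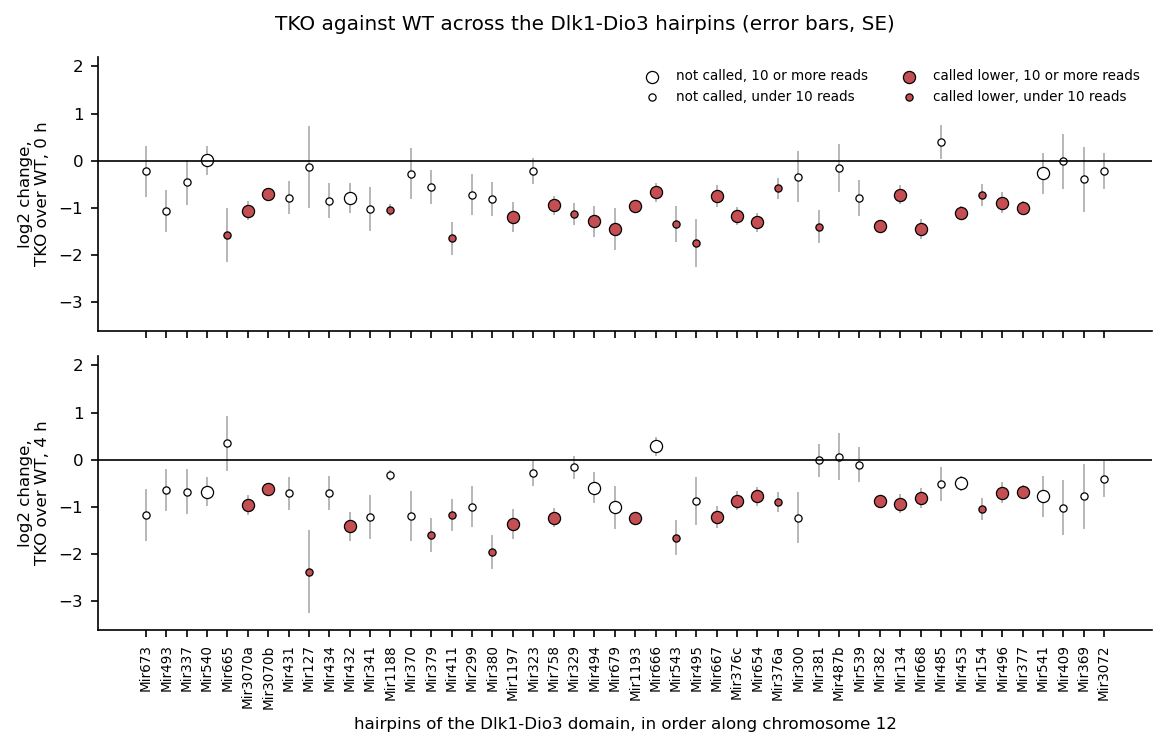
Change on the log2 scale in TKO against WT, at 0 h and at 4 h, for the hairpins of the 3 runs of the Dlk1-Dio3 domain in their order along chromosome 12, with the SE as bars. Red points were called lower, and large points have 10 or more reads per library. Nearly all points lie below 0 at both times, and calls are spread along the domain.

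The long transcripts of the domain went the same way. Mirg averaged 37.4 TPM in WT 0 h and 19.7 TPM in TKO 0 h (-0.98, adjusted p = 4.54e-05 in limma), Rian 207 and 120 TPM (-0.88, adjusted p = 9.9e-07), and Meg3 17.8 and 11.5 TPM (-0.68, adjusted p = 7.76e-05). Over all members, in this domain and outside it, 12 intronic hairpins were called lower at 0 h. For 6 of them the host was called lower as well, and these hosts include genes outside the domain. After amanitin in WT the corresponding count was 1 of 36, and the 2 shares were not compared by a test.

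After 4 h in amanitin the domain was again lower in TKO. There 21 of its 47 members were called lower and 0 higher, with a median of -0.87, and 17 were called at both times. The changes at 0 h and at 4 h rest on separate libraries. Their tests share the same estimate of the spread of each feature, so the calls at both times are not independent. Mir1193 stood at 27.8 and 21.2 TPM in WT 0 h, 18.8 and 16.5 TPM in WT 4 h, 11.6 and 14.4 TPM in TKO 0 h and 8.22 and 7.35 TPM in TKO 4 h. The genotypes were apart at both times, by -0.95 at 0 h (adjusted p = 0.00031 in limma) and -1.23 at 4 h (SE 0.128, adjusted p = 6.33e-05). Mir432, opposite to Rtl1, stood at 27.6 and 31.2 TPM in WT 4 h and 19.4 and 6.91 TPM in TKO 4 h (-1.41, adjusted p = 0.00446), and the TKO libraries differed between themselves. The other named falls at 4 h were those of Mir1197 (-1.35), Mir758 (-1.22) and Mir667 (-1.21), whose groups did not overlap. With fewer reads, Mir127 had 9 reads in WT 4 h and 0 in TKO 4 h, at least 2.8-fold lower when 3 reads are allowed over the TKO 4 h pair. Its call ended with a pseudocount of 5 TPM, with no filter, with no variance trend and on leaving out any of 5 libraries. Mir380 had 8 and 1 reads (7.46-fold lower, exact counting interval 1.0 to 331).

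Over all members, 31 were called lower in TKO at 4 h (13.5%), against 5.82% of all features, and 31 were called higher (13.5%), against 11.0%. The median was 0.05. Quantile normalisation gave 19 higher and 35 lower, with a median of -0.06, so the split at 4 h depended on the scaling. Without TKO 4 h replicate 1, 20 were called higher. Outside the Dlk1-Dio3 list 31 of 182 were higher and 10 lower. Both this comparison and that of amanitin in WT use the WT 4 h libraries, so their values are not independent. Mir15b differed by 1.65 (SE 0.26, adjusted p = 0.000684 in limma), Mir1898 by 1.31 (adjusted p = 0.000266), Mirlet7f-1 by 0.96 (adjusted p = 0.00125) and Mir674 by 0.94 (adjusted p = 0.0216). The call of Mir674 ended without WT 4 h replicate 2 (adjusted p = 0.149), without TKO 4 h replicate 1 (0.0555) and without TKO 4 h replicate 2 (0.0873). Mir709 had 1 read in WT 4 h and 16 in TKO 4 h (17.2-fold, exact counting interval 2.67 to 720), and Mir23a had 2 and 12 (6.44-fold, interval 1.43 to 59.2), a call that ended without TKO 4 h replicate 1 (adjusted p = 0.062).

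Members higher in TKO at 0 h were scattered over the genome and had few reads. Mir142, a microRNA of blood cells, stood at 2.23 and 0 TPM in WT 0 h, 0 and 3.23 TPM in WT 4 h, 11.5 and 10.6 TPM in TKO 0 h and 5.98 and 6.94 TPM in TKO 4 h. All 4 TKO libraries were above all 4 WT libraries. These values rested on 2 reads in WT 0 h and 20 in TKO 0 h, a 9.74-fold difference with an exact counting interval of 2.37 to 86.0, and the limma call (adjusted p = 0.00874) ended without WT 0 h replicate 2 (0.0663). In the WT polyA libraries Mir142 stood at 8.65, 6.88 and 12.1 TPM, within the range of the TKO libraries or above it. Mir196a-1, from a Hox gene cluster, stood at 0 and 1.36 TPM in WT 0 h, 1.31 and 0.675 TPM in WT 4 h, 5.88 and 7.41 TPM in TKO 0 h and 3.00 and 5.08 TPM in TKO 4 h. Here too the genotypes did not overlap, on 2 and 19 reads at 0 h (9.25-fold, interval 2.23 to 81.9), but the feature averaged under 1 TPM in both WT groups and passed the limit mainly through the TKO libraries. In polyA RNA of WT cells, however, the feature stood at 14.4, 13.8 and 11.4 TPM, above every ribodepleted TKO library.

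The miR-302 cluster on chromosome 3, opposite to Larp7, is known for its activity in pluripotent cells and shares the seed AAGUGCU with members of the Mir290 cluster. Its 5 members each had under 10 reads per library. Summed, they had 4 and 4 reads in WT 0 h, 1 and 4 in WT 4 h, 22 and 20 in TKO 0 h, 18 and 6 in TKO 4 h and 0 in each polyA library. Both TKO groups lay above both WT groups, and the TKO 4 h libraries differed between themselves. At 0 h the share of reads was 5.11-fold higher in TKO with an exact counting interval of 2.37 to 12.6, which covers counting error only. Mir302a, Mir302b and Mir367 were called higher at 0 h, and Mir302b at 4 h. After amanitin in WT, 1 of the 5 members was called lower, Mir302c, on 3 reads in WT 0 h. Mir367 had 0 reads in all WT libraries, and Mir302a and Mir302b had 1 or 2 reads in WT 0 h, so these members passed the limit mainly through the TKO libraries and their calls are not independent of it.

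Of the other members higher at 0 h, Mir425 and Mir1b had 10 or more reads. Mir425 stood at 10.1 and 7.33 TPM in WT 0 h and 14.1 and 16.9 TPM in TKO 0 h (0.68, adjusted p = 0.00187 in limma), and the change fell under 1.5-fold without WT 0 h replicate 2 (0.50) or TKO 0 h replicate 2 (0.57). Mir1b stood at 6.45 and 5.11 TPM and at 8.20 and 12.4 TPM (0.63, adjusted p = 0.0191), and the adjusted p was 0.113 and 0.14 without those libraries. Of 5 intronic hairpins called higher at 0 h whose host was tested, 2 had a host that was higher as well. These were Mir763 in Hmga2 (host 2.16) and Mir3092 in Fndc3b (host 0.97), both named after their values were seen. Mir763 had 1 read in WT 0 h and 13 in TKO 0 h, and Mir3092 had 1 and 12. Both passed the limit mainly through the TKO libraries, so their calls are not independent of it.

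Outside chromosome 12, the widest fall at 0 h was that of Mir191. It stood at 6.76 and 7.49 TPM in WT 0 h, 0.903 and 3.72 TPM in WT 4 h, 0 and 0 TPM in TKO 0 h and 1.03 and 2.00 TPM in TKO 4 h. Neither TKO 0 h library held a read, and both WT 0 h libraries lay above all others. With 15 reads in WT 0 h and 0 in TKO 0 h, the share was at least 5.13-fold lower in TKO when 3 reads are allowed over the pair (adjusted p = 0.000173 in limma). Its neighbour Mir425, downstream on the same strand, was higher in TKO at 0 h, as given above. Mir3971 had 9 reads in WT 0 h and 1 in TKO 0 h, but it averaged over 1 TPM in WT 0 h alone and passed the limit mainly through that group, so its lower level elsewhere is no separate result. Mir1983, the riser after amanitin, was lower in TKO at 0 h (-0.60, adjusted p = 0.0136) and at 4 h (-0.82, adjusted p = 0.00279). Over all members 18 were called lower at both times and 7 higher at both, while 2 were lower at 0 h and higher at 4 h and 1 the reverse. The share of all features called at both times was not counted, so these numbers are a description only.

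The members seen differed between the polyA and the ribodepleted libraries. The levels are described without a test, since the limit that chose the members used the ribodepleted libraries. RNA selection, sequencing experiment and read depth also differed together between the library types and cannot be told apart. Of the 229 members, 78 averaged over 1 TPM in the 3 polyA libraries and 215 in WT 0 h, 44 were listed at 0 in all polyA libraries and 24 stood higher in polyA than in WT 0 h. The median was 0.42 TPM in polyA and 6.13 TPM in WT 0 h. By location, 37 of 104 intronic hairpins, 15 of 28 exonic ones, 20 of 77 intergenic ones and 2 of 12 opposite-strand ones were over 1 TPM in polyA.

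Mir17hg stood at 108, 116 and 102 TPM in polyA, above its 72.6 and 67.4 TPM in WT 0 h, whereas hairpins within it were nearly absent: Mir19a was at 0 in all 3 polyA libraries and Mir18 at 0.577, 0.860 and 0.252 TPM. The Sfmbt2 array had 1, 8 and 5 reads in all, and 14 of its 19 hairpins were listed at 0. The 47 Dlk1-Dio3 hairpins had 122, 101 and 117 reads. The opposite held for Mir682, in an exon of Gm4149, with 298, 237 and 134 TPM in polyA against 35.0 and 44.7 TPM in WT 0 h, and for Mir363, with 75.7, 69.7 and 72.2 TPM against 24.8 and 17.5 TPM. Mir3064, in an exon of Ddx5, stood at 139, 163 and 158 TPM in polyA and 161 and 113 TPM in WT 0 h, so the library types overlapped. Mir1949, the highest in ribodepleted RNA, was lower in polyA at 110, 106 and 97.7 TPM.

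**Figure D5:**
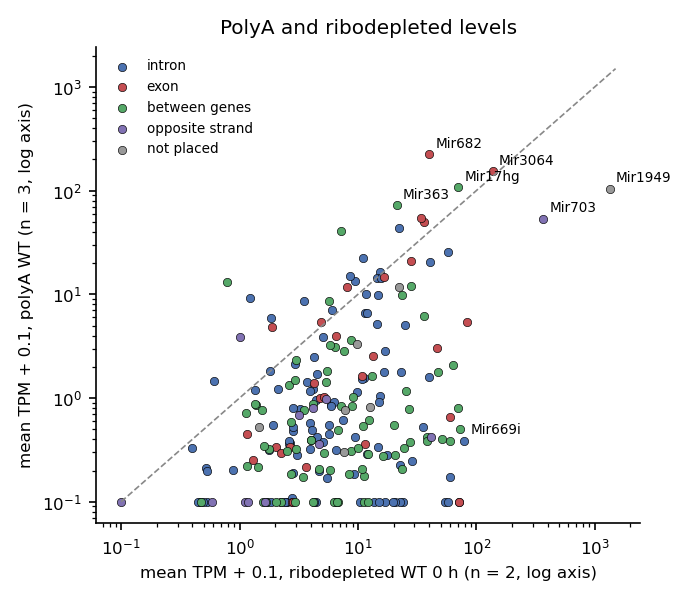
Mean TPM plus 0.1 of each of the 229 features in WT polyA libraries (n = 3, vertical) against WT 0 h ribodepleted libraries (n = 2, horizontal), both on log axes, coloured by location in the mm9 annotation. The dashed line marks equal levels, and 24 features lie above it, among them Mir17hg, Mir682 and Mir363.

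Genes that make and regulate microRNAs were described in the same way. Of 31 genes listed, 24 were in the files and 23 were tested, Drosha, Dgcr8, Dicer1 and the Argonaute genes Eif2c1, Eif2c2 and Eif2c3 among them, while Eif2c4 was below the limit. After amanitin 0 were called in either genotype by limma, with no change over 1.5-fold. An unadjusted p under 0.05 was reached by 11 of the 23 in WT, beside 6116 of all 12467 features, and by 5 in TKO, beside 3110. Between genotypes Zcchc11, a uridylyltransferase that marks pre-let-7, was called higher in TKO at 0 h (1 of 23 called higher, beside 10.5% of all features; 14.3 TPM in WT and 27.8 TPM in TKO, 0.82, adjusted p = 0.000129 in limma) and at 4 h (0.83). Lin28a, which blocks let-7 maturation, averaged 411 TPM in WT 0 h and 309 TPM in TKO 0 h and was called lower at 4 h (-0.61, adjusted p = 2.48e-05) and not at 0 h (-0.51, under 1.5-fold).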

How the data were processed

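RNA-seq of 11 libraries of mouse ESCs was used, grouped by sample title. Per the study's methods, the authors removed reads of ribosomal and transfer RNA with Bowtie2, trimmed reads with Trimmomatic, aligned them with STAR to mm9, counted reads per RefSeq gene with HTSeq and deposited TPM values per gene. From these deposited TPM values the read number of each feature was recovered, using the step between low values. All 19869 features above 0 gave whole reads within a tolerance of 0.003. Reads are not molecules, and intervals and floors (95%, exact or Wilson; 3 reads for a count of 0) cover counting error only.

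For testing, TPM was divided by median-of-ratios size factors, features with a mean over 1 scaled TPM were kept (12467, all 229 members among them) and limma 3.58.1 (R 4.3.3) was run on log2(value + 1), with a variance trend and 4 ribodepleted groups. Folds are on that log2 scale and understate changes of low features. Adjusted p-values are Benjamini-Hochberg over all features tested. The authors' own count test was not rerun. The deposited values are TPM, and the reads recovered from them were tested by voom as an alternative only. The script was checked on simulated data, where unchanged features with under 10 reads were called more often than deeper ones, so counts are also given for members with 10 or more reads.

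Hairpins were placed in build mm9 by an exact match of their RefSeq hairpin (189) or by symbol (33). Runs of hairpins on 1 strand within 10 kb of each other formed clusters. RefSeq names matched 199 members, and the other 30 are named without sequence. Features that overlap an exon, or share sequence with near-identical copies, cannot be told apart from their neighbours by reads. Named genes were the 10 members with the most reads, up to 5 rises and 5 falls per comparison with 10 or more reads and no overlap between groups, up to 2 examples below that depth, up to 4 members per list, host transcripts, hosts, the 5 highest in polyA and the processing genes. The members and lists were chosen with earlier results of these data known. Alternatives covered scaling, pseudocounts of 0.1 and 5, filters, the replicate number as a block, voom on recovered reads, the fold limit and leaving out each library.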

Additional observations from a re-analysis of the deposited data

Results flagged for a closer look

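In 5 members every library of 1 group moved against every library of the other under the same contrast. The difference was not shown by the test of the interaction in limma, in which no member was called, and its direction alone led to their listing. Mir674 was lower in TKO than in WT at 0 h and higher at 4 h, a difference between the changes of 1.85 on the log2 scale (adjusted p = 0.652). Mir669c was also slightly lower in TKO at 0 h and higher at 4 h, with a difference of 1.07 (adjusted p = 0.652). Mir709 fell in both WT libraries after amanitin and was higher in both TKO libraries, with a difference of 2.47 (adjusted p = 0.532), on 0 to 9 reads per library. Mirlet7i was higher in TKO at 0 h and lower at 4 h, with a difference of -1.58 (adjusted p = 0.61), on 2 to 9 reads. Mir191 fell after amanitin in WT and was higher after amanitin in TKO, from 0 reads, with a difference of 2.64 (adjusted p = 0.652).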

How the results depend on the processing

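Alternatives were run for 24 results of named members with 10 or more reads and 13 with fewer; other named values were not rerun. For the 24 results of named members with 10 or more reads, 368 of 408 values under the alternatives kept the call and 40 missed it, 14 results kept it under every alternative, and 0 changed sign. For the 13 with fewer reads, 168 of 207 kept the call and 39 missed it, with 7 kept throughout and 0 sign changes. Counts of calls moved more, and the cause was not tested beyond what each setting does by construction. Of the members, 74 were called lower in WT after amanitin; the count was 45 with quantile normalisation, 27 with no filter, 42 among members with 10 or more reads, 33 by voom among those, a setting chosen after seeing the data, and 26 to 79 without 1 library. Beside 3 called higher, deposited TPM, either pseudocount, the 5 TPM filter, voom and both settings with 10 or more reads gave 1, no filter 0, the block and no fold limit 5 each, and leaving out a library 1 to 6. In TKO after amanitin 2 were called, and 11 with deposited TPM, 5 by voom, 6 above 5 TPM, 1 with 10 or more reads, 5 with the block, 0 with a pseudocount of 0.1, no filter or no variance trend, and 0 to 38 without 1 library. The interaction gave 0, and 0 to 4 without 1 library. Higher at 0 h were 14, and 7 with a pseudocount of 5, 2 above 5 TPM or with 10 or more reads, 0 by voom with 10 or more reads and 8 to 17 without 1 library. Lower at 0 h were 38, and 25 above 5 TPM, 22 with 10 or more reads by either fit and 22 to 44 without 1 library. Higher at 4 h were 31, and 19 with quantile normalisation, 16 with a pseudocount of 5, 18 with no filter, 13 above 5 TPM, 8 with 10 or more reads, 5 by voom among those and 20 to 38 without 1 library. Lower at 4 h were 31, and 18 with a pseudocount of 5 or above 5 TPM, 16 with 10 or more reads, 13 by voom among those and 27 to 39 without 1 library. Where a library was left out, the lone sample of its group was assumed to vary like the other groups.

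Libraries with the same replicate number deviated from their group means with correlations of -0.0443 to 0.119, so the numbers did not pair the samples. With the replicate number as a block, 78 members were lower in WT after amanitin, 17 higher and 40 lower in TKO at 0 h, and 29 higher and 37 lower at 4 h. Depth limited most of what could be seen: 146 members had under 10 reads per library, so their values moved in steps of whole reads.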
